A study of Sus scrofa with 9 samples.

Results

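The deposited count table of miniature pig heart RNA labels 5600 of its 30942 rows as long noncoding RNA (lncRNA), and 115 of those rows averaged at least 10 CPM (the row's read count scaled to a common library total) over the 9 libraries. These 115 rows, called entries here, were chosen by that mean level alone, so their levels are given as a description. The hearts belonged to 3 groups of 3 libraries, all of genotype WT: pigs given Vehicle, pigs given Doxorubicin and pigs given Doxorubicin+Formononetin (the combination group). Doxorubicin is an anthracycline used against cancer that is known to injure heart muscle, and formononetin is a plant isoflavone. The sources used here give no dose, route, duration, age, sex or part of the heart, nor do they say if replicates are different pigs, so the p-values measure the spread between these libraries, which may be technical. With 3 libraries against 3, an exact permutation test cannot go below p = 0.1, and all tests below come from 1 edgeR model fitted across all 14846 genes that passed a filter on low counts. All 115 entries passed that filter.

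Long noncoding RNAs are transcripts of some length without a long conserved reading frame. Some stay in the nucleus, where they scaffold bodies such as paraspeckles or guide chromatin modifiers, some regulate the gene they lie beside, and for most no function is known. Their sequences change quickly in evolution, so a pig locus often has no name even where another mammal has a well-studied counterpart. Many are transcribed from the strand opposite a protein-coding gene or from a promoter shared with one. Where such transcripts overlap, a count table made without strand information cannot separate their reads.

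The label held only in part when the entries were set against their own descriptions. Of the 115 entries, 73 were described as uncharacterized loci and 42 carried the name of a protein, among them GSN (gelsolin), EIF4B, EIF3B, HNRNPU, TGOLN2, CD99, CDK6 and RARG. Such names were rare among all 5600 lncRNA rows, of which 69 (1.23%) were described otherwise than as uncharacterized, against 36.5% of the entries. The RefSeq table (Sscrofa11.1) gave the same start and end for all 115, the biotype lncRNA for all 115, and noncoding transcript accessions only. Whether a protein is made from the 42 loci in pig was not tested, and both classes are therefore described separately. None of 51 familiar lncRNA symbols looked for (such as those of nuclear-retained, imprinted and X-inactivation RNAs) was carried by an entry, and 1 of them, MEG3, was in the table at all, at a mean of 1.31 CPM.

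Neighbouring genes were common. On the coordinates of the authors' table, 52 entries overlapped another row, 47 of them on the other strand and 7 on the same strand, and 37 overlapped a protein-coding row. Of all entries, 20 started within 5000 bases of a protein-coding start on the other strand without overlapping that gene, and 7 of these overlapped some other row. The strand setting of the authors' counting is not given in the sources used here, so reads of an entry and of a row that overlaps it may be mixed. Overlap was taken on whole spans from start to end, so a pair may overlap only within an intron. The entry LOC102165633 on chromosome X, for example, spans the rows of 4 microRNAs on its own strand (MIR421, MIR374B, MIR545 and MIR374A), and LOC110260979 on chromosome 6 lies wholly within GPI, the gene of the glycolytic enzyme glucose-6-phosphate isomerase, on the same strand.

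Levels fell off steeply with rank. The uncharacterized locus LOC100513133 (chromosome 2, 6803590 to 6811708, minus strand) averaged 1409 CPM and the gelsolin-named GSN entry (chromosome 1, 261295711 to 261372848, plus strand) averaged 1401 CPM, and together they held 39.7% of all counts of the 115 entries. The first 10 entries held 61.6%. In all, 7 entries reached 100 CPM, 52 lay between 20 and 100 CPM and 56 lay under 20 CPM. The entries just inside the limit were LOC110257075 (10.3 CPM), LOC110256997 (10.3 CPM) and LOC102165528 (10.2 CPM), and the rows just outside it were LOC100622481 (9.996 CPM), LOC102164131 (9.85 CPM) and LOC106507672 (9.63 CPM).

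**Figure D1:**
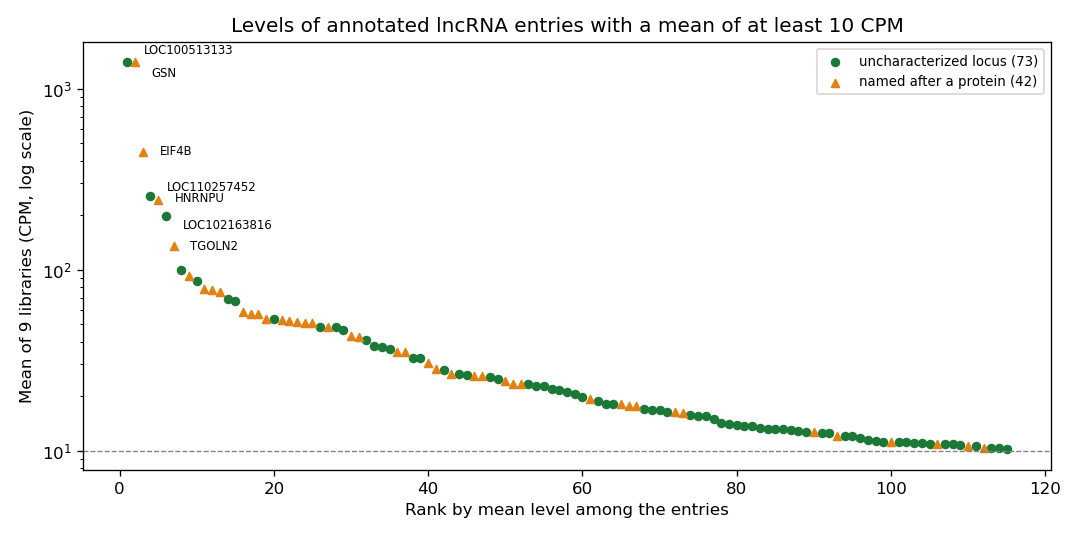
Mean level of each of the 115 entries over 9 libraries (CPM, log axis) against its rank; circles are the 73 uncharacterized loci, triangles the 42 entries named after a protein, and the dashed line is the 10 CPM limit. LOC100513133 and GSN stand highest and 56 entries lie under 20 CPM.

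Compared per length of annotated transcript, GSN was highest at 219 CPM per kilobase, followed by LOC100513133 at 178 and by LOC100512560 (115), SEM1 (113) and EIF4B (109). Entries named after a protein had a median of 11.6 CPM per kilobase and uncharacterized loci one of 4.77, with median lengths of 3858.5 and 4179 bases. LOC100513133 has a length of 7928 bases in a span of 8119, and 6 uncharacterized loci and 0 protein-named entries had a length of at least 90% of their span, the pattern of a transcript with little or no intron. The uncharacterized locus LOC102163816 (6749941 to 6794116, plus strand), ends 9473 bases before LOC100513133.

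The libraries held 16291952 to 17549359 counts each. The 115 entries together took 0.731%, 0.910% and 0.832% of the counts in the vehicle libraries, 0.598%, 0.570% and 0.554% in the doxorubicin libraries and 0.703%, 0.829% and 0.656% in the combination libraries. The group means were 0.824%, 0.574% and 0.729%. In the same order GSN averaged 0.195%, 0.0525% and 0.173% and LOC100513133 0.181%, 0.0884% and 0.154%. Most of the difference between vehicle and doxorubicin thus lay in GSN and LOC100513133. Combination replicate 2 stood apart, with 14766 genes and 927 lncRNA rows detected, against 18107 to 19304 genes and 2006 to 2439 lncRNA rows in the other libraries, although no entry was at 0 in it. The tissue label held: the summed level of 10 cardiomyocyte markers ranged from 67107 to 76313 CPM in the vehicle, 44374 to 53067 in the doxorubicin and 58203 to 63436 in the combination libraries, and 4 skeletal muscle markers summed to at most 0.307 CPM in any library. Other markers also moved between groups. The 6 proliferation markers summed to 9.19 to 17.8, 50.9 to 71.5 and 16.3 to 25.6 CPM in the 3 groups in the same order, the 7 macrophage markers to 153 to 232, 287 to 297 and 213 to 244, and the 5 adipocyte markers to 177 to 192, 71.3 to 75.3 and 117 to 137. The 5 Schwann cell markers summed to 45.5 to 57.7, 35.2 to 37.5 and 71.1 to 134 CPM, and the 3 atrial markers to 697 to 969, 18.6 to 64.6 and 370 to 732. The atrial sum was mostly MYL7, with group means of 710, 18.5 and 539 CPM, while NPPA averaged 99.0, 14.0 and 8.31 and SLN 4.44, 5.67 and 1.33, both lowest with the combination. In the same order of groups, the sums were 2000 to 3503, 1993 to 2809 and 2192 to 5038 CPM for 7 fibroblast markers (of which 2 were called lower and 0 higher after doxorubicin, with PDGFRA averaging 67.8, 18.7 and 67.9 CPM and LUM 114, 182 and 131), 985 to 1408, 839 to 987 and 1144 to 1294 for 6 endothelial markers, and 647 to 945, 631 to 708 and 793 to 1555 for 6 pericyte and smooth muscle markers. They were 23.5 to 37.4, 41.6 to 54.8 and 34.8 to 47.3 CPM for 6 lymphocyte markers and 10.6 to 21.8, 8.17 to 13.9 and 10.2 to 40.4 for 2 erythroid markers. The part of these differences in the results below was not tested, and in bulk tissue fewer cells of a type and less RNA per cell cannot be told apart.

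The comparison of doxorubicin with vehicle asks which entries differ after the drug alone. At an adjusted p under 0.05 (edgeR quasi-likelihood test, Benjamini-Hochberg over all genes tested), 25 of the 115 entries rose and 26 fell, 44.3% in all. Over all genes tested 33.3% were called, 16.3% higher and 17.0% lower. Of protein-coding rows with the same minimum mean level 44.2% were called. These coding rows share the minimum but were not matched to the entries in level, and no difference between the shares was tested. The other 774 lncRNA rows tested, all of lower level, had 10.98% called. The median log2 fold change was -0.06 over the entries and -0.00 over all genes, and 16 of the called entries changed by at least 2-fold. Doxorubicin and vehicle libraries did not overlap in many rows. Doxorubicin lay wholly above in 34 entries and wholly below in 36, beside 4099 and 4114 of all 14846 genes tested. Separate groups, described for single entries below, are therefore common in these data.

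Among uncharacterized loci 18 rose and 17 fell of 73 (47.9%), and among protein-named entries 7 rose and 9 fell of 42 (38.1%). A mean over 9 libraries can pass 10 CPM through a group where the entry is high. In 25 entries a group mean was under 10 CPM, and 15 of them were called here. Tests of those 25, here and below, are a description and no support. They include LOC106504698, LOC110257221, LOC100512700, LOC100513397, LOC106509609, IL3RA, RARG, LOC110255760, LOC102157484, LOC110260801, LOC102165528, LOC100621455, CCNB1IP1, LOC102163894 and LOC110257075. The 90 with every group mean at or above 10 CPM had 18 that rose and 18 that fell. Without combination replicate 2, 62 entries were called, and the biological coefficient of variation edgeR estimated for the combination group was then 18.5% in place of 33.0%. In 27 entries (11 higher, 16 lower) the call held in all 16 other settings tried.

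**Figure D2:**
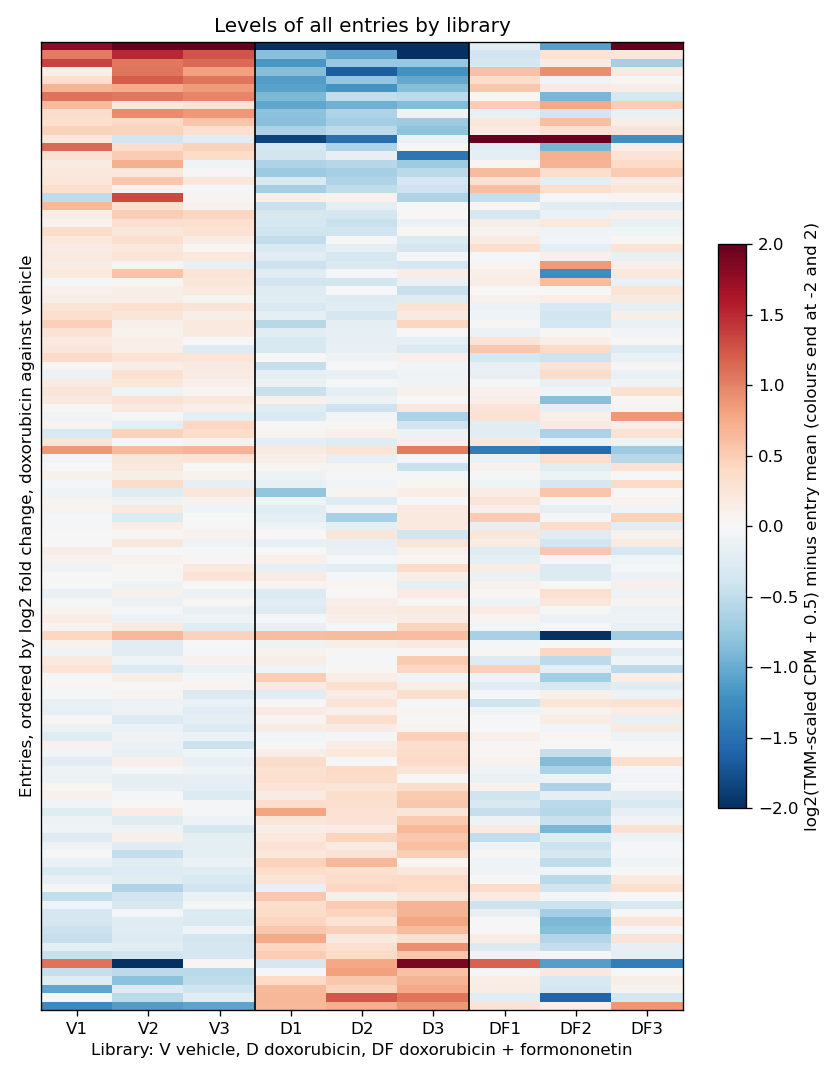
Level of each of the 115 entries (rows, ordered by the log2 fold change of doxorubicin against vehicle) in the 9 libraries (columns), as log2(TMM-scaled CPM + 0.5) minus the entry's mean, colours ending at -2 and 2. In the top rows the 3 doxorubicin columns are blue and in the bottom rows they are red, with the combination columns in between in many rows.

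**Figure D3:**
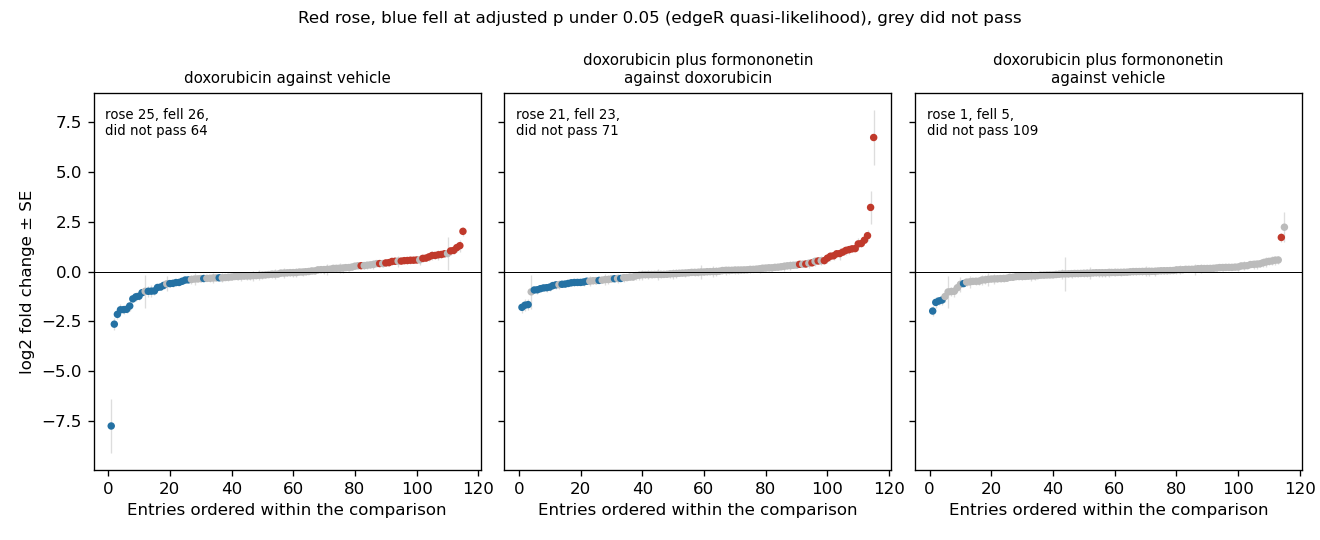
Log2 fold change with its standard error for the 115 entries in the 3 comparisons, each panel in its own order; red rose, blue fell, grey did not pass. The called entries number 25 and 26 for doxorubicin against vehicle, 21 and 23 for the combination against doxorubicin, and 1 and 5 for the combination against vehicle.

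The most abundant entry, LOC100513133, was among those that fell. Its level (TMM-scaled CPM, here and in all levels by library below) was 1858, 1829 and 1684 in the vehicle libraries, 867, 936 and 771 in the doxorubicin libraries and 1500, 1666 and 1609 in the combination libraries. All doxorubicin libraries lay far below the others, and the combination libraries lay just below the vehicle ones. The change after doxorubicin was -1.06 ± 0.10 (log2, SE; adjusted p = 7.72e-05, edgeR), between -1.13 and -0.99 over all other settings. Its neighbour LOC102163816 had 128, 458 and 190 CPM with vehicle, 195, 192 and 119 after doxorubicin and 132, 179 and 187 with the combination. One vehicle library was far above the rest and the groups overlapped, with a difference of -0.62 ± 0.38 (adjusted p = 0.232) that did not pass.

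The GSN entry carries the name of gelsolin, which severs and caps actin filaments and is secreted into plasma. It had 1261, 2443 and 2065 CPM with vehicle, 648, 374 and 506 after doxorubicin and 1751, 2232 and 1329 with the combination. The doxorubicin libraries lay below all 6 others, among which vehicle and combination overlapped. Its fall of -1.92 ± 0.27 (log2, SE; adjusted p = 0.000462, edgeR) held in every setting. The median coefficient of variation of the 115 entries was 9.18% in the vehicle, 12.8% in the doxorubicin and 15.7% in the combination group, beside a mean ± SD of 1923 ± 604 CPM (n = 3) for GSN with vehicle.

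Expression of LOC106504698 (chromosome 8, 70900226 to 70904516, 7583 bases from PARM1) was nearly absent after doxorubicin. It had 14.0, 35.6 and 17.7 CPM with vehicle, 0.11, 0 and 0.184 after doxorubicin, and 3.10, 1.49 and 28.8 with the combination. The doxorubicin libraries held 5 counts in all against 1144 in the vehicle libraries, a ratio of 229 with a counting interval of 97.9 to 707 (95%, counting error only). The count of 0 in doxorubicin replicate 2 allows up to 3 counts. The combination libraries disagreed with one another, since replicate 3 lay within the vehicle range and the other replicates lay far below it. The fitted change of -7.74 ± 1.35 (adjusted p = 0.0015, edgeR) was -8.45 without doxorubicin replicate 3, and limma-voom did not call it (adjusted p = 0.162).

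Other uncharacterized loci also fell by more than 3-fold. LOC110257221 on chromosome 16 had 20.6, 28.7 and 24.0 CPM with vehicle, 5.24, 4.44 and 2.03 after doxorubicin and 7.36, 11.9 and 11.5 with the combination, a change after doxorubicin of -2.64 ± 0.31 (adjusted p = 0.000174). The 3 groups did not overlap and doxorubicin was lowest. LOC100512700, on an unplaced sequence, had 16.5, 17.3 and 18.6 CPM with vehicle against 4.58, 4.15 and 5.41 with doxorubicin (-1.89 ± 0.18, adjusted p = 6.96e-05), and the combination libraries lay between, at 15.0, 11.4 and 11.1. LOC100513397 on chromosome 2 had 28.7, 28.1 and 26.5 CPM with vehicle, 6.84, 9.30 and 9.04 with doxorubicin (-1.73 ± 0.23, adjusted p = 0.000316) and 13.7, 6.77 and 10.5 with the combination. In this locus the doxorubicin and combination libraries overlapped and both lay below vehicle.

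A stretch of chromosome 2 between CSNK1A1 and PPARGC1B held a pair of falling entries. PPARGC1B encodes a coactivator of oxidative metabolism genes. LOC106509607 (150745621 to 150757781, minus strand) had 44.4, 81.6 and 74.1 CPM with vehicle, 15.99, 20.3 and 17.0 after doxorubicin and 45.2, 33.3 and 35.5 with the combination. Doxorubicin libraries lay below all others (-1.91 ± 0.22, adjusted p = 0.000151), and 1 combination library exceeded the lowest vehicle library. LOC106509609, which starts 13896 bases further on and was named after its values were seen, had 13.9, 21.4 and 20.2 CPM with vehicle against 5.90, 6.87 and 10.3 with doxorubicin (-1.27 ± 0.23, adjusted p = 0.00205). LOC106509607 overlaps ARHGEF37, a guanine nucleotide exchange factor gene on the other strand, by 6028 bases, and ARHGEF37 fell as well (-1.34 ± 0.24, adjusted p = 0.0017).

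**Figure D4:**
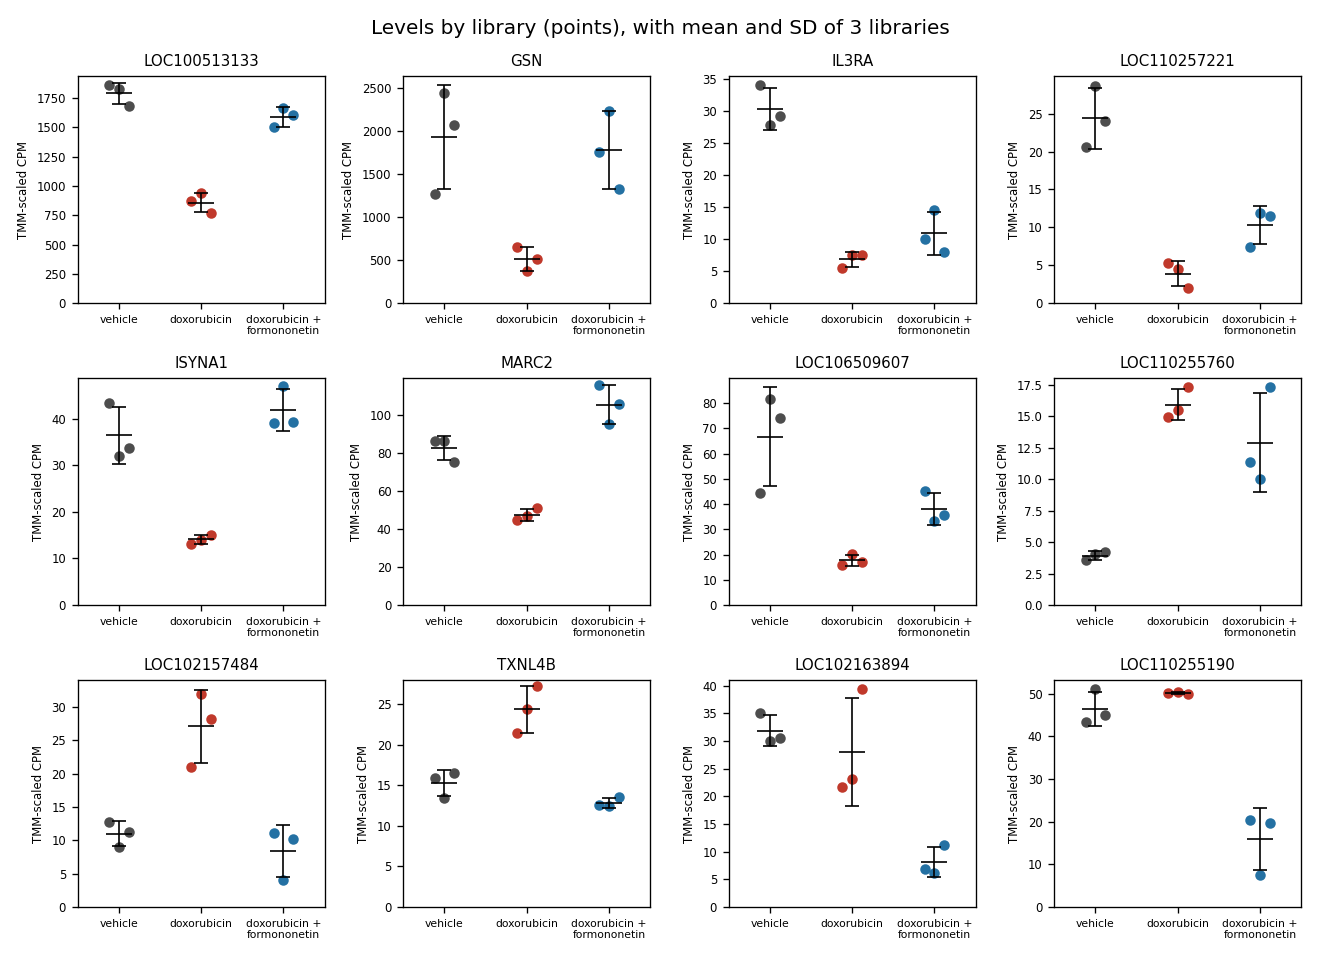
Level by library (points; TMM-scaled CPM, linear axes from 0) with the mean and SD of 3 libraries for 12 entries. In LOC100513133, GSN, ISYNA1 and MARC2 the doxorubicin libraries lie below both other groups, in LOC102157484 and TXNL4B above both, and in LOC102163894 and LOC110255190 the combination libraries lie below both.

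Among entries that rose after doxorubicin, LOC110255760 on chromosome 11 changed most. It had 3.55, 4.02 and 4.24 CPM with vehicle, 15.0, 15.5 and 17.3 after doxorubicin and 11.4, 10.03 and 17.4 with the combination. No vehicle library came near the others, and the change was 2.02 ± 0.22 (log2, SE; adjusted p = 0.000125, edgeR). The locus lies inside the span of DACH1, a transcriptional regulator, on the other strand, and DACH1 itself did not pass (0.02 ± 0.10, adjusted p = 0.874).

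LOC102157484 on chromosome 13 had 12.7, 9.01 and 11.3 CPM with vehicle, 21.1, 31.9 and 28.2 after doxorubicin and 11.1, 4.01 and 10.2 with the combination. Its doxorubicin libraries lay above all others (1.30 ± 0.31, adjusted p = 0.00781). LOC110260801 near DUSP6, which encodes a phosphatase of ERK kinases, had 5.59, 10.03 and 9.04 CPM with vehicle, 19.2, 16.6 and 20.8 with doxorubicin (1.20 ± 0.22, adjusted p = 0.00213) and 13.4, 9.46 and 12.8 with the combination. LOC102165834, inside the span of the F-box gene FBXL7 on the other strand, had 29.3, 19.3 and 24.2 CPM with vehicle and 45.5, 50.5 and 55.7 with doxorubicin (1.06 ± 0.17, adjusted p = 0.000909). In both loci the vehicle and doxorubicin libraries did not overlap.

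LOC110257276 lies within the span of PDE4D, a cAMP phosphodiesterase gene, on the other strand. It had 14.4, 13.7 and 13.6 CPM with vehicle and 19.5, 35.7 and 30.3 with doxorubicin (1.04 ± 0.19, adjusted p = 0.00221), whereas PDE4D did not pass (0.26 ± 0.12, adjusted p = 0.114). LOC100525935 had 11.1, 11.7 and 11.9 CPM with vehicle and 21.9, 19.9 and 22.6 with doxorubicin (0.89 ± 0.13, adjusted p = 0.000485). LOC102165528, the last entry inside the limit, had 8.36, 8.29 and 7.53 CPM against 13.0, 12.2 and 18.6 (0.86 ± 0.19, adjusted p = 0.00613). LOC100621455 had 7.46, 8.65 and 8.03 CPM against 18.1, 11.96 and 13.2 (0.84 ± 0.24, adjusted p = 0.0194). That last call was lost without doxorubicin replicate 1 or vehicle replicate 1 or 3, with adjusted p up to 0.0889 and a change between 0.64 and 0.96 over all settings.

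The 42 protein-named entries were sorted by what the named protein does, after their values had been seen, so the groups below order the text and show nothing about a class of proteins. EIF4B, EIF2B4 and EIF3B carry names of translation initiation factors. EIF4B, the cofactor of the eIF4A helicase, had 487, 492 and 467 CPM with vehicle, 381, 375 and 379 after doxorubicin and 476, 490 and 509 with the combination, with no overlap between doxorubicin and the others (-0.35 ± 0.09, adjusted p = 0.00961). EIF2B4, a subunit of the exchange factor for eIF2, fell by 0.55 ± 0.14 (adjusted p = 0.00979). EIF3B, a scaffold subunit of eIF3, fell by 0.31 ± 0.10 (adjusted p = 0.0346), but lost its call in 7 of 16 other settings, on leaving out vehicle replicate 1 or 2 or any doxorubicin replicate among them (adjusted p up to 0.136, change between -0.36 and -0.26).

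IL3RA and RARG carry names of signal receptors. IL3RA, the alpha chain of the interleukin 3 receptor, had 34.0, 27.7 and 29.1 CPM with vehicle, 5.51, 7.52 and 7.50 after doxorubicin and 10.04, 14.6 and 7.997 with the combination. All 3 groups were separate, with vehicle highest (-2.14 ± 0.22 after doxorubicin, adjusted p = 9.49e-05). RARG, a nuclear receptor of retinoic acid, had 12.4, 12.7 and 14.5 CPM with vehicle, 5.24, 5.86 and 5.72 after doxorubicin and 11.4, 15.0 and 10.6 with the combination (-1.24 ± 0.18 after doxorubicin, adjusted p = 0.000522). Here vehicle and combination overlapped and doxorubicin lay below both.

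Of 4 entries named after mitochondrial proteins, 1 fell. MARC2, a molybdenum enzyme of the outer mitochondrial membrane that reduces N-hydroxylated compounds, had 86.5, 86.3 and 75.2 CPM with vehicle, 44.9, 46.7 and 50.9 after doxorubicin and 116, 95.02 and 106 with the combination (-0.80 ± 0.11 after doxorubicin, adjusted p = 0.000421). Its 3 groups did not overlap and the combination was highest. MRPS12, TIMM10 and SMIM4 had differences of 0.09 ± 0.15, 0.10 ± 0.20 and -0.02 ± 0.20 and did not pass.

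Of 8 entries named after membrane traffic or lipid proteins, 2 rose and 1 fell. ISYNA1, which makes inositol phosphate from glucose 6-phosphate, had 43.3, 32.1 and 33.8 CPM with vehicle, 13.2, 14.0 and 15.0 after doxorubicin and 39.1, 47.0 and 39.3 with the combination, and fell by 1.37 ± 0.14 after doxorubicin (adjusted p = 9.49e-05). The doxorubicin libraries lay well below all others. TGOLN2, a cargo protein of the trans-Golgi network, and TMEM159, a protein of lipid droplets, rose by 0.40 ± 0.11 (adjusted p = 0.0147) and 0.51 ± 0.17 (adjusted p = 0.0381). TGOLN2 lost its call without doxorubicin replicate 1 or 2 or vehicle replicate 2 or 3, with adjusted p up to 0.0625. TMEM159 lost its call without doxorubicin replicate 1, combination replicate 1 or vehicle replicate 1 or 3 and with a replicate block, with adjusted p up to 0.171 and a change down to 0.30.

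Of 7 entries named after proteins of RNA processing and export, 2 rose. TXNL4B, named for a splicing-associated thioredoxin-like protein, had 15.9, 13.4 and 16.5 CPM with vehicle, 21.4, 24.4 and 27.2 after doxorubicin and 12.5, 12.4 and 13.6 with the combination (0.67 ± 0.14 after doxorubicin, adjusted p = 0.00394). TROVE2, the Ro60 protein that binds misfolded small RNAs, had 40.6, 41.6 and 42.3 CPM with vehicle, 64.4, 62.3 and 57.9 after doxorubicin and 47.1, 47.0 and 49.9 with the combination (0.57 ± 0.09, adjusted p = 0.00104). In both, doxorubicin libraries lay above all others. HNRNPU, a nuclear matrix protein that anchors chromatin-bound RNA, had 255 to 264 CPM with vehicle, 227 to 238 with doxorubicin and 227 to 242 with the combination, and its difference after doxorubicin of -0.15 ± 0.09 (adjusted p = 0.201) did not pass.

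Among entries named after cell cycle and chromosome proteins, 2 of 4 rose, both with calls near the threshold. CDK6, the G1 kinase partner of D-type cyclins, had 31.3, 28.9 and 31.2 CPM with vehicle and 46.7, 54.3 and 34.4 with doxorubicin (0.57 ± 0.17, adjusted p = 0.0236), and lost its call without doxorubicin replicate 1 or 2 or any vehicle replicate (adjusted p up to 0.106, change between 0.41 and 0.73). CCNB1IP1, a ubiquitin ligase named for binding cyclin B1, rose by 0.45 ± 0.15 (adjusted p = 0.0389) and lost its call without any one vehicle or doxorubicin replicate, with a replicate block and with no filter on low counts (adjusted p up to 0.129). The summed proliferation markers were higher in all doxorubicin libraries than in any other, as given above. PDS5A, a cohesin regulator, and SWI5, a recombination factor, had differences of 0.27 ± 0.10 and 0.16 ± 0.18 and did not pass.

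Of 5 entries named after ubiquitin and proteasome proteins, 1 fell. ZNRF1, a RING ubiquitin ligase, had 58.3, 62.8 and 55.7 CPM with vehicle and 35.6, 49.0 and 41.6 with doxorubicin (-0.49 ± 0.13, adjusted p = 0.0126), a call lost without doxorubicin replicate 1 or vehicle replicate 2 (adjusted p up to 0.0549, changes of -0.38 and -0.44). POMP, the proteasome assembly factor, ITCH, a HECT ubiquitin ligase, SEM1 and COPS7B had differences of 0.34 ± 0.13, 0.40 ± 0.14, 0.17 ± 0.24 and 0.03 ± 0.14 and did not pass. The symbol SEM1 also stands on another row of the table, so its reads may be split. Of the 9 remaining protein-named entries, GSN fell and C1H18orf32 rose (0.55 ± 0.15, adjusted p = 0.0165), the latter losing its call without doxorubicin replicate 3 or vehicle replicate 2 (adjusted p of 0.0625 and 0.0756).

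Several of the most abundant uncharacterized loci changed by less than 2-fold. LOC110257452 had 235, 234 and 213 CPM with vehicle and 283, 285 and 268 with doxorubicin, and LOC100624113, which overlaps the heat shock gene HSPA1L on the other strand, had 113, 119 and 114 against 84.2, 77.7 and 97.2. LOC100512560 had 65.4, 69.9 and 67.8 CPM against 111, 100 and 144. In each the 2 groups did not overlap. The changes were 0.29 ± 0.10 (adjusted p = 0.0412), -0.42 ± 0.11 (adjusted p = 0.0139) and 0.81 ± 0.24 (adjusted p = 0.0219). LOC110257452 lost its call in 9 settings, among them without any 1 vehicle or doxorubicin replicate (adjusted p up to 0.15), LOC100624113 without doxorubicin replicate 2 or vehicle replicate 2 (up to 0.0607), and LOC100512560 without doxorubicin replicate 3 or any vehicle replicate (up to 0.0904).

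The combination was next compared with doxorubicin alone, which asks what differs when formononetin is given with the drug. Of the 115 entries, 21 rose and 23 fell at an adjusted p under 0.05, 38.3% in all, beside 28.1% of all genes tested (14.7% higher, 13.5% lower) and 36.4% of protein-coding rows of the same minimum level. The median log2 fold change was -0.04 over the entries and -0.01 over all genes, and 13 called entries changed by at least 2-fold. When libraries were scaled by their totals only, the median of all genes moved to -0.10 and the split of the calls became 14 higher and 28 lower. This comparison shares the doxorubicin libraries with the previous one, so the values of an entry in both are not independent and are set side by side only. The call held in all 16 other settings for 22 entries, 11 higher and 11 lower. Among the 90 entries with every group mean at or above 10 CPM, 12 rose and 17 fell.

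Among those that rose, GSN changed by 1.80 ± 0.27 (log2, SE; adjusted p = 0.000993, edgeR) beside -1.92 for doxorubicin against vehicle, and LOC100513133 by 0.89 ± 0.10 (adjusted p = 0.000285) beside -1.06. ISYNA1 changed by 1.57 ± 0.14 (adjusted p = 7.22e-05) and MARC2 by 1.15 ± 0.11 (adjusted p = 9.91e-05). RARG changed by 1.14 ± 0.18 (adjusted p = 0.00127), LOC100512700 by 1.41 ± 0.18 (adjusted p = 0.000415) and LOC110257221 by 1.39 ± 0.31 (adjusted p = 0.00704). In each of these 7 entries all 3 combination libraries lay above all 3 doxorubicin libraries, as the levels given above show, and each call held in every other setting. Such separation was common. The combination lay wholly above doxorubicin in 20 of the 115 entries and wholly below in 30, beside 2963 and 3302 of all 14846 genes tested. RARG, LOC100512700 and LOC110257221 had a doxorubicin mean under 10 CPM, so their rises are a description and no support.

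Entries with the largest fitted rise rested on uneven combination libraries. LOC106504698 changed by 6.72 ± 1.38 (adjusted p = 0.00492), with 516 counts against 5 (ratio 108, counting interval 45.9 to 333, 95%), of which replicate 3 held most. Its change was 4.46 without combination replicate 3 and 7.42 without doxorubicin replicate 3, and limma-voom did not call it (adjusted p = 0.311). LOC110257075 (chromosome 15, 140375429 to 140382252) had 6.49, 4.08 and 4.57 CPM with vehicle, 1.16, 1.60 and 4.92 after doxorubicin and 34.4, 34.3 and 2.03 with the combination. Combination replicates 1 and 2 were far above all other libraries, while replicate 3 lay within the doxorubicin range. With group means of 5.05, 2.56 and 23.6 CPM, this entry passed the 10 CPM limit only through the combination group, so its rise in that group is a description and no support. Its change of 3.21 ± 0.81 (adjusted p = 0.0138) was 4.10 without doxorubicin replicate 3 and lost its call without doxorubicin replicate 1 (adjusted p = 0.0569) or 2 (0.0581), with a replicate block (0.0546) and in limma-voom (0.17).

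The entry that fell most against doxorubicin was LOC102163894 (chromosome 1, 14148312 to 14151214, minus strand), inside the span of SYNE1, which encodes the nuclear envelope protein nesprin-1, on the other strand. It had 35.2, 29.98 and 30.6 CPM with vehicle, 21.7, 23.2 and 39.4 after doxorubicin and 6.87, 6.19 and 11.3 with the combination. The combination libraries lay below all 6 others, among which the groups overlapped, and the change against doxorubicin was -1.79 ± 0.26 (adjusted p = 0.00087). SYNE1 itself differed by 0.22 ± 0.14 between the same groups and did not pass (adjusted p = 0.268).

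LOC110255190 (chromosome 4, 104984647 to 104995023, plus strand) lies 627 bases from CASQ2, the gene of cardiac calsequestrin, the calcium buffer of the sarcoplasmic reticulum, and overlaps VANGL1 on the other strand by 683 bases. It had 43.3, 51.0 and 45.0 CPM with vehicle, 50.1, 50.3 and 49.9 after doxorubicin and 20.5, 7.51 and 19.8 with the combination. Again the combination libraries lay below all others (-1.66 ± 0.28 against doxorubicin, adjusted p = 0.00167), and the change was -1.31 without combination replicate 2, its lowest library. VANGL1, a planar polarity protein gene, differed by -0.19 ± 0.19 and did not pass.

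LOC102157484 fell by 1.68 ± 0.31 (adjusted p = 0.00296) and TXNL4B by 0.92 ± 0.14 (adjusted p = 0.00112) against doxorubicin. LOC102165528 had 7.85, 6.88 and 8.52 CPM with the combination, below all doxorubicin libraries, and fell by 0.91 ± 0.19 (adjusted p = 0.00584). TMEM159 had 39.4, 36.4 and 48.4 CPM, against 94.5, 66.2 and 64.4 with doxorubicin, and fell by 0.86 ± 0.17 (adjusted p = 0.00408). CCNB1IP1, at 8.64, 7.34 and 8.72 CPM against 13.9, 13.6 and 16.1, fell by 0.82 ± 0.15 (adjusted p = 0.0029). LOC100519283 on chromosome 18 had 32.5, 37.2 and 41.7 CPM with vehicle, 64.5, 61.8 and 68.8 after doxorubicin and 44.2, 24.2 and 43.1 with the combination, and fell by 0.81 ± 0.19 (adjusted p = 0.0108). In each of these 6 entries the doxorubicin libraries lay above all combination libraries, and each call held in every other setting.

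Of the other protein-named entries, EIF4B rose against doxorubicin by 0.38 ± 0.09 (adjusted p = 0.00825), while EIF2B4 differed by 0.21 ± 0.14 and did not pass (adjusted p = 0.271). IL3RA rose by 0.67 ± 0.22 (adjusted p = 0.042) but lost its call in 12 of 16 other settings, among them the loss of any single library other than combination replicate 3, with a change between 0.40 and 0.85. EIF3B rose by 0.36 ± 0.10 (adjusted p = 0.0224) and lost its call in 4 settings, among them without doxorubicin replicate 1 or combination replicate 1 (adjusted p up to 0.0853). The RNA-processing entry TROVE2 fell by 0.36 ± 0.09 (adjusted p = 0.0148), a call lost without doxorubicin replicate 1 and in a fit of the 2 groups alone (adjusted p up to 0.057). Cell cycle and chromosome entries CDK6, SWI5 and CCNB1IP1 fell, 3 of 4. CDK6 lost its call without doxorubicin replicate 1 or 2 and in a fit of the 2 groups alone (adjusted p up to 0.0809) and SWI5 in 10 settings (up to 0.184). ITCH fell by 0.55 ± 0.14 (adjusted p = 0.0167, and 0.0589 without doxorubicin replicate 2). CD99, a cell surface adhesion protein, rose by 0.55 ± 0.17 (adjusted p = 0.0352) and lost its call in 7 settings (up to 0.108). TGOLN2 and C1H18orf32 fell by 0.35 ± 0.11 (adjusted p = 0.0327) and 0.44 ± 0.15 (adjusted p = 0.0485), and each lost its call in 10 settings (up to 0.119 and 0.153).

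The combination against vehicle asks what differs from the vehicle group when both agents are given. In it 1 entry rose and 5 fell, 5.22% of the 115, beside 1.76% of all genes tested (0.956% higher, 0.808% lower) and 1.91% of protein-coding rows of the same minimum level. At counts this small no difference between these shares was tested, and 5 of the 6 changed by at least 2-fold. Combination libraries lay wholly above vehicle in 9 entries and wholly below in 25, beside 1577 and 1928 of all 14846 genes tested. Of the 90 entries with every group mean at or above 10 CPM, 0 rose and 2 fell in the same edgeR test. Without combination replicate 2, 7 entries were called. This comparison shares the vehicle libraries with the first and the combination libraries with the second. No group was given formononetin alone, so the parts of the agents in it cannot be told apart.

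LOC110255760 was the entry that rose, by 1.71 ± 0.22 (log2, SE; adjusted p = 0.00299, edgeR), beside 2.02 for doxorubicin alone against vehicle, and DACH1 again did not pass (0.16 ± 0.10, adjusted p = 0.432). LOC102163894 fell by 1.98 ± 0.26 (adjusted p = 0.00365), where doxorubicin alone differed from vehicle by -0.19 ± 0.25 (adjusted p = 0.599). LOC110255190 fell by 1.55 ± 0.28 (adjusted p = 0.0185), with a difference of 0.11 ± 0.26 (adjusted p = 0.781) for doxorubicin alone. For both loci the test of the combination against doxorubicin, given above, is the test of that contrast. The call of LOC110255190 was lost without any 1 vehicle replicate (adjusted p up to 0.0781) and in a fit of the 2 groups alone (up to 0.0812), with a change between -1.77 and -1.20 over all settings.

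IL3RA fell by 1.47 ± 0.21 (adjusted p = 0.00654) and LOC100513397 by 1.43 ± 0.22 (adjusted p = 0.00973) against vehicle. LOC100515792 on chromosome 11 starts 170 bases from PAN3, a subunit of a deadenylase of messenger RNA, on the other strand. It had 41.4, 38.6 and 37.8 CPM with vehicle, 31.9, 29.5 and 34.3 after doxorubicin and 24.8, 23.9 and 28.9 with the combination. The 3 groups did not overlap and the combination was lowest. It fell by 0.60 ± 0.11 against vehicle (adjusted p = 0.0247), but lost the call without combination replicate 1 or any vehicle replicate, with a replicate block and in a fit of the 2 groups alone (adjusted p up to 0.115, change between -0.68 and -0.55). Against vehicle PAN3 differed by 0.04 ± 0.12 and did not pass.

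LOC110257221 and LOC106509607 fell short of the threshold against vehicle, at -1.25 ± 0.29 (adjusted p = 0.0536) and -0.81 ± 0.21 (adjusted p = 0.0801). LOC106504698 and LOC110257075 did not pass either (adjusted p = 0.547 and 0.179), yet without combination replicate 3 both did, at -3.28 and 2.77 (adjusted p = 0.0063 for each). Values for the most abundant entries were small, at -0.17 ± 0.10 for LOC100513133, -0.12 ± 0.26 for GSN and 0.03 ± 0.09 for EIF4B, and none of these passed. A p that misses the threshold does not show that the groups are alike.

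Each entry was then set beside the protein-coding gene that overlaps it or starts within 5000 bases. The caution on strand given above applies to the overlapping pairs. For doxorubicin against vehicle, 31 pairs overlapping on opposite strands could be tested. In 11 of them both partners were called, 8 in the same and 3 in opposite directions. In 7 the entry alone was called, in 6 the coding gene alone, and in 7 neither. Of 19 testable pairs with nearby starts and no overlap, 4 had both partners called, all in the same direction, 5 the entry alone, 0 the coding gene alone and 10 neither. Of the pairs with nearby starts, in the combination against doxorubicin 3 had both partners called (2 in the same and 1 in opposite directions), 4 the entry alone, 3 the coding gene alone and 9 neither. The overlapping pairs gave there 6 with both partners called (4 in the same and 2 in opposite directions), 9 with the entry alone, 3 with the coding gene alone and 13 with neither. After doxorubicin, calls were made in 25 of the 63 entries that overlap no row and in 26 of the 52 that overlap one. In that comparison 44.3% of the 115 entries, 44.2% of coding rows of at least 10 CPM and 33.3% of all genes were called. These counts and those of the pairs are to be read against the shares of their comparison. No difference was tested and no rate for genes that are not neighbours is given, so the counts are a description.

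**Figure D5:**
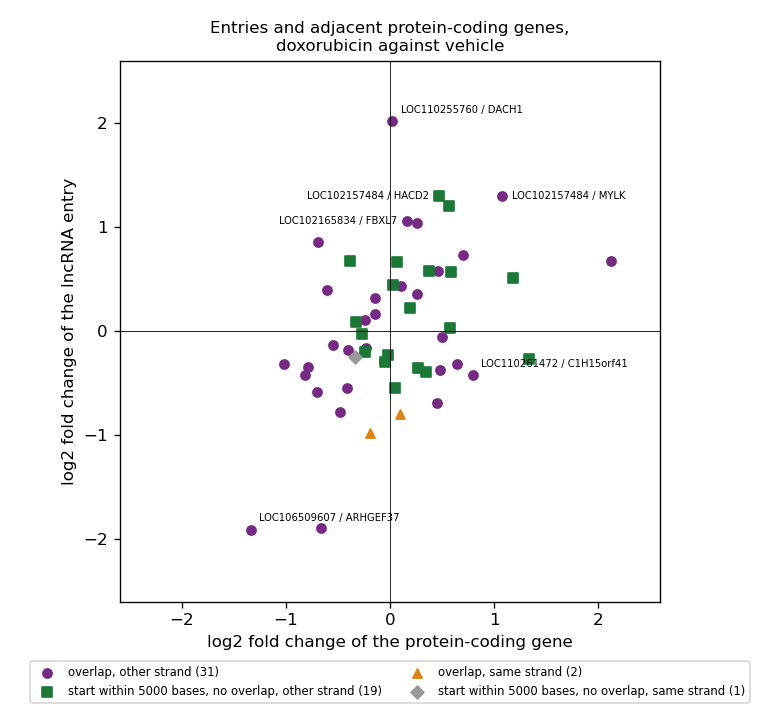
Log2 fold change of each entry (vertical) and of the adjacent protein-coding gene (horizontal), doxorubicin against vehicle, by the relation of the pair. LOC106509607 and ARHGEF37 lie low on both axes, LOC102157484 lies high with MYLK and HACD2, and LOC110255760 lies high with DACH1 near 0.

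Among pairs called in the same direction, LOC102157484 overlaps MYLK, the myosin light chain kinase of smooth muscle, by 8982 bases, and its start lies 52 bases from that of HACD2, an enzyme of fatty acid elongation. MYLK rose after doxorubicin by 1.08 ± 0.20 (adjusted p = 0.00228) and HACD2 by 0.47 ± 0.12 (adjusted p = 0.0109). With the combination against doxorubicin HACD2 fell by 0.57 ± 0.12 (adjusted p = 0.00556), while MYLK differed by -0.12 ± 0.20 (adjusted p = 0.681) and LOC102157484 fell. TROVE2 starts 310 bases from UCHL5, a proteasome-bound deubiquitinase gene that rose by 0.58 ± 0.13 after doxorubicin (adjusted p = 0.00511). LOC100512700 overlaps FAM69B by 79 bases, and FAM69B fell by 0.66 ± 0.11 (adjusted p = 0.00093). In opposite directions, TGOLN2 overlaps by 149 bases RETSAT, a retinol saturase gene that fell by 0.61 ± 0.10 (adjusted p = 0.00136).

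Proteins that make, bind or degrade long noncoding RNAs were listed for context, and these lists were chosen with earlier results of these data known. After doxorubicin 33.3% of all genes and 44.2% of coding rows of at least 10 CPM were called. For the combination the shares were 28.1% and 36.4% against doxorubicin, and 1.76% and 1.91% against vehicle. Each count below is to be read against the shares of its comparison. Of 17 tested genes of paraspeckle proteins, nuclear bodies built on a long RNA, 0 rose and 7 fell after doxorubicin (41.2% called), with a median of -0.27 beside -0.00 over all genes. TAF15 fell by 1.05 ± 0.13 (adjusted p = 0.000238) and HNRNPH3 by 0.57 ± 0.10 (adjusted p = 0.00166). These are RNA-binding proteins of the nucleus. In the combination against doxorubicin 4 of the 17 rose and 1 fell (29.4% called), TAF15 by 0.84 ± 0.13 (adjusted p = 0.00123) among the rising. Against vehicle 0 of the 17 were called with the combination, in a comparison where few genes were called at all, so this does not show a return to the vehicle level.

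Of 16 tested genes of nonsense-mediated decay, the pathway that removes transcripts with early stop codons, 1 rose and 6 fell after doxorubicin (43.8% called), with a median of -0.23. The nuclease SMG6 fell by 0.88 ± 0.15 (adjusted p = 0.00138), the helicase UPF1 by 0.61 ± 0.14 (adjusted p = 0.0075) and the exon junction protein CASC3 by 0.54 ± 0.09 (adjusted p = 0.00157). With the combination against doxorubicin 2 rose and 0 fell (12.5% called). Of 22 tested genes of the nuclear RNA exosome and its adaptors, 3 rose and 2 fell after doxorubicin (22.7% called), among them the core subunit EXOSC2 (-2.27 ± 0.37, adjusted p = 0.00107), the cofactor C1D (0.81 ± 0.11, adjusted p = 0.000436) and the helicase SKIV2L2 (0.44 ± 0.11, adjusted p = 0.0108).

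Of 23 tested genes of transcription termination and the Integrator complex, 5 rose and 3 fell after doxorubicin (34.8% called), with INTS6 at 0.77 ± 0.13 (adjusted p = 0.00103), INTS1 at -0.62 ± 0.13 (adjusted p = 0.00478) and CPSF1 at -0.41 ± 0.10 (adjusted p = 0.00736). Of 18 tested partners of the X-inactivation RNA, one of which is the HNRNPU entry, 4 rose and 3 fell (38.9% called), with CIZ1, a nuclear matrix protein, at -1.20 ± 0.15 (adjusted p = 0.000234) and the Polycomb subunit RING1 at -0.55 ± 0.11 (adjusted p = 0.00395). Of 13 tested genes listed for 3′-end processing of the long noncoding RNAs MALAT1 and NEAT1, 2 rose and 0 fell (15.4% called). RPP30, a subunit of RNase P, rose by 1.24 ± 0.22 (adjusted p = 0.00161). METTL3, the catalytic subunit of the m6A writer and not an enzyme of 3′-end cleavage, rose by 0.41 ± 0.12 (adjusted p = 0.0221). The call of METTL3 was lost without doxorubicin replicate 3 or vehicle replicate 2 or 3 and with no filter on low counts (adjusted p up to 0.0778).

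MEG3, an imprinted long noncoding RNA well below the 10 CPM limit, had mean levels of 1.86 CPM with vehicle, 0.34 with doxorubicin and 1.70 with the combination. It fell by 2.41 ± 0.74 after doxorubicin (adjusted p = 0.0261), a call lost without doxorubicin replicate 2 or 3 or vehicle replicate 2 or 3, with a replicate block and in limma-voom (adjusted p up to 0.0959). The change was -3.32 without doxorubicin replicate 1. Against doxorubicin the combination was higher by 2.28 ± 0.74 (adjusted p = 0.0384), a call lost in 10 of 16 other settings, and 3.19 without doxorubicin replicate 1.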

How the data were processed

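Total RNA of pig heart was made into libraries with an mRNA kit, per the labels' protocols, and the authors deposited raw read counts per gene for 9 libraries. The sources used here name no aligner, counting tool, strand setting or genome build; start and end of all 115 entries match RefSeq Sscrofa11.1. Counts were fitted in edgeR 4.0.16 (R 4.3.3) with a quasi-likelihood test over all 9 libraries, TMM scaling and filterByExpr (minimum count 10), which kept 14846 genes and left out 16096. P-values were adjusted over all genes tested (Benjamini-Hochberg, threshold 0.05), and SE was taken as the log2 change over √F. Levels are TMM-scaled CPM; the selection used unscaled CPM. The fit was tested on simulated counts of all 14846 genes. In each layout 67 genes were changed by 1.5-fold, 67 by 2-fold and 66 by 4-fold. Laid out as doxorubicin against vehicle, it recovered 11.9% of 1.5-fold, 41.8% of 2-fold and 75.8% of 4-fold changes. Of its calls 8.51% were false there, 1.92% for the combination against doxorubicin and 8.25% for the combination against vehicle. Changes under 2-fold thus often did not pass in the simulation. For doxorubicin against vehicle it called 94 genes, whereas 4947 were called in the data. The adjusted p depends on how many genes change, so these rates need not hold for the data.

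The entries, gene lists and marker lists were chosen with earlier results of these data known. Entries named in the text are the 10 most abundant, those whose symbol does not begin with LOC, the 8 with the largest called rise and fall in each comparison and those at the 10 CPM limit; up to 3 genes were named per list by smallest p, and coding genes within 5000 bases of a named entry. LOC106509609, LOC110260979, LOC102165633 and the flanking genes PARM1, CASQ2, CSNK1A1 and PPARGC1B were named after their values were seen. Alternatives were RLE scaling, library totals, limma-voom (limma 3.58.1), DESeq2 1.42.0, no filter on low counts, 2 groups only, a replicate block and each library left out. Sequences are not shown, and intervals on counts cover counting error only. Some genes the rule would name are not reported here.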

Additional observations from a re-analysis of the deposited data

How the results depend on the processing

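No fold change of an entry called in the main comparisons reversed under the 16 other settings. With each library left out in turn, the entries called numbered 35 to 62 for doxorubicin against vehicle, 30 to 45 for the combination against doxorubicin and 4 to 8 for the combination against vehicle. In the last comparison, 6 entries were called by edgeR, 10 by DESeq2 and 11 with no filter on low counts, and the cause was not tested. A replicate block gave 45, 38 and 5 entries in the same order of comparisons. The replicate numbers showed no sign of pairing. Deviations from group means of same-numbered libraries correlated at -0.204 to 0.0271 in 9 pairs, 0 of them over 0.1. Of the libraries, 0 correlated best with their own number. With 3 libraries a group, this cannot exclude pairing. A minimum mean of 5 CPM took in 199 rows (69, 61 and 11 called) and one of 20 CPM 59 rows (28, 23 and 3 called). Of the entries named and called, 22 of 34, 18 of 31 and 4 of 6 kept the call in every setting.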
